A study of Mus musculus with 6 samples.

Results

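The type I interferon-stimulated genes described here are 39 listed mouse genes, from Ifit1 and Isg15 to the signalling factors Stat2, Irf7 and Irf9, that cells switch on when they sense type I interferon. Of the 39, 36 had an array row whose only gene symbol was that gene, and where a gene had several such rows the one of highest mean was taken. Oas3, Ifi44 and Sp100 had no such row and were not analysed here. All 36 measured genes passed the filter on dim genes, which left out the 25% of genes with the lowest mean (below a log2 level of 5.60), so they were 36 of 15191 genes tested out of 20255 with a single-symbol row. Mx2 passed it only through the group in which it was higher, as given below. The 36 were listed by name and not for their values, but they were chosen with earlier results of these data known.

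The tissue was skin scar biopsied after a wound had closed, a setting in which mice can form new hair follicles in the scar. Each of 6 samples was read on an Affymetrix exon array: a scar of high and a scar of low regeneration was taken on day 4, on day 6 and on day 9 after closure, which gives 3 samples a group. The design text describes the second group as having no new follicles, whereas the sample labels call it low, and the label is used here. No strain, age, sex, genotype or agent is given in the labels used here, and they do not say how many animals a biopsy came from. P-values therefore measure only the spread between these samples. In a whole biopsy, fewer cells of a type and less RNA per cell cannot be told apart.

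Type I interferons bind a shared receptor on the cell surface, whose kinases activate transcription factors that include STAT2. A complex that holds STAT2 and IRF9 enters the nucleus and binds the interferon-stimulated response element in the promoters of its target genes. The products block viral RNA, make altered nucleotides, tag proteins with the ubiquitin-like ISG15, or feed back on the pathway, and in skin the response is known from infection and wounding.

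The 6 arrays were close in overall level, with medians between 6.04 and 6.10. These values are read as log2 from their range, since their scale is not stated in the sources used here. 2 samples stood apart. In the low-regeneration sample of day 9, Xist, transcribed from the inactive X chromosome of females, was at a log2 level of 12.77. In that sample the Y-linked genes Kdm5d, Eif2s3y and Uty were at 4.98, 4.36 and 3.88, against 7.10 to 8.07 elsewhere. The day 9 difference between the groups therefore cannot be told apart from a difference in sex. Xist was at 7.30 in the low-regeneration sample of day 6 and at 5.75 to 5.82 in the remaining samples. The source of that day 6 level was not tested. The class II gene H2-Ea was at 6.59 in the day 4 sample of high regeneration, against 4.09 to 4.43 elsewhere, and H2-Ob was at 6.16 there, against 7.68 to 8.07 elsewhere. These last 2 genes were chosen after their values were seen, and their part in the results was not tested. The summaries of the group difference and of the slope are also given without these samples. So are the single genes whose group difference then moved by over 1.5 times. Single-gene slopes without these samples are given only for genes whose sign turned. The difference in slope was fitted only with these samples included.

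Mean levels of the interferon-stimulated genes were lower in scars of high regeneration, though none of the 36 passed the test. Every one of the 36 had a lower mean there, with differences (high minus low) from -1.52 for Ifit1 to -0.032 for Ifitm3 on the log2 scale and a median of -0.64, against a median of -0.0028 over all genes tested. The sign turned for Slfn5 without the day 4 pair (0.0086) and for Ifitm3 without the day 9 pair (0.0009). The mean difference was over 1 log2 unit for 6 genes (Ifit1, Ifit3, Usp18, Stat2, Mx1 and Isg15), between 0.5 and 1 for 17 and under 0.5 for 13. Without the day 9 pair it was over 1 only for Ifit1 (-1.23) and Usp18 (-1.04), and without the day 4 pair for 4 genes. None of the 36 passed the test: 0 reached an adjusted p under 0.05, where 8 of all genes did (0.0527% of those tested), and the lowest adjusted p among them was 0.173. At an unadjusted p under 0.05, 30 of the 36 (83.3%) were lower in high regeneration, against 5.17% of all genes. Mx2, which passed the dim filter only through its low-regeneration samples, is among these 30. The level was lower in high regeneration at all 3 days for 31 genes (86.1%), against 18.3% of all genes. For 26 genes (72.2%) all 3 high-regeneration samples lay below all 3 low-regeneration samples, against 6.18% of all genes. These genes share their samples and are known to be driven together, so their counts are not independent observations.

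**Figure D1:**
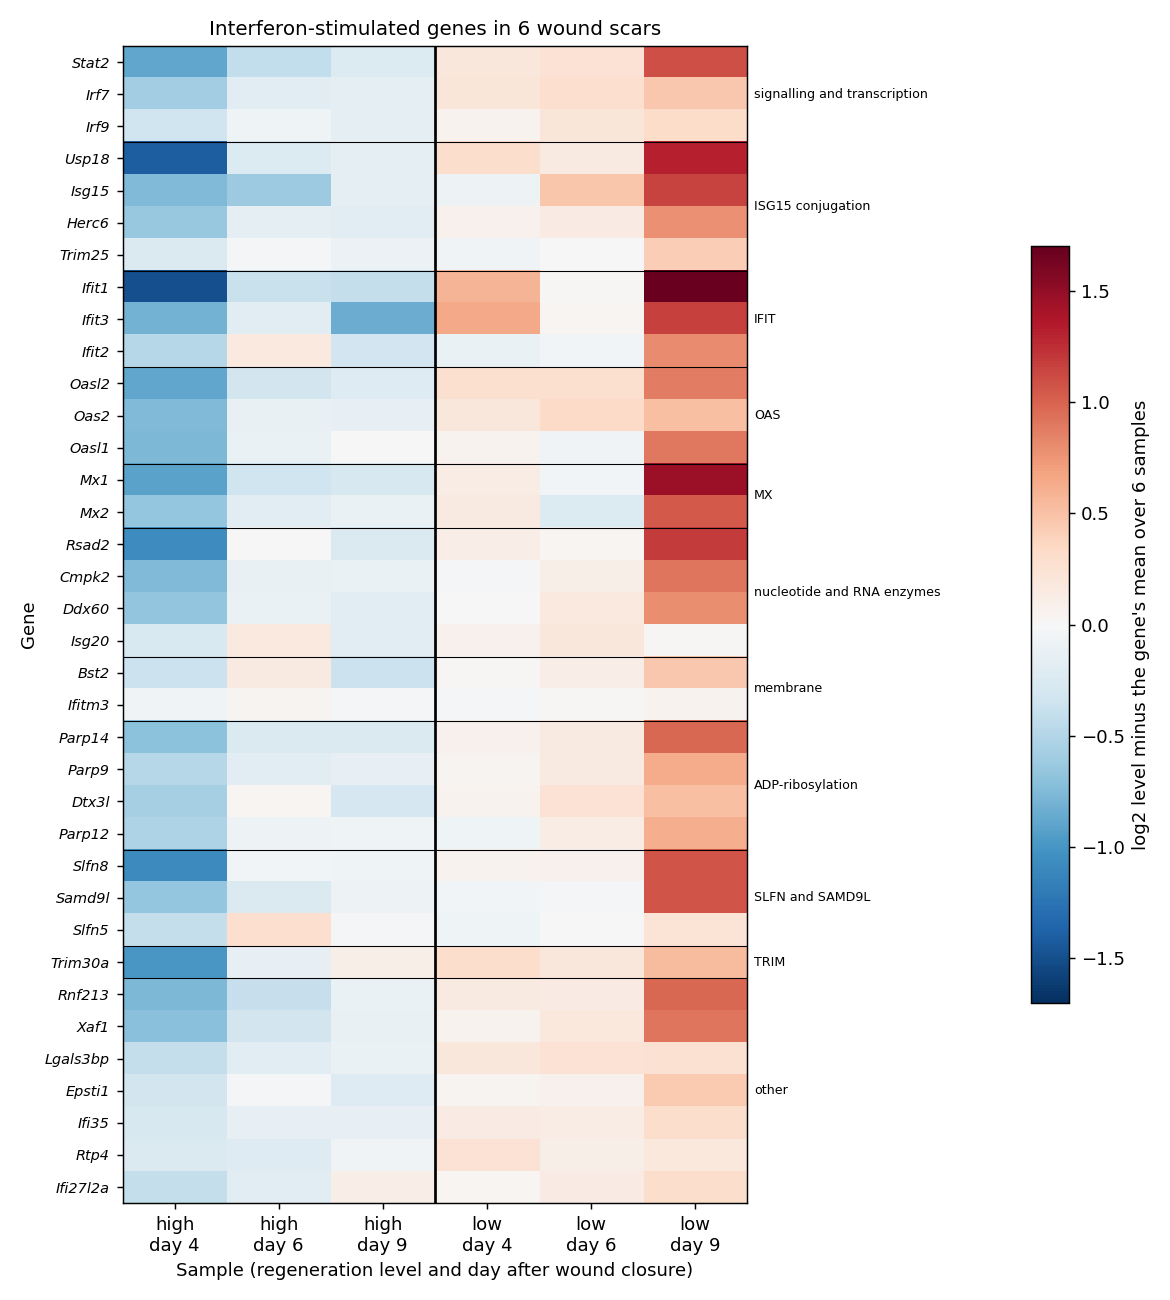
Log2 level of each of the 36 interferon-stimulated genes (rows, grouped by role) in the 6 samples (columns), shown as the difference from the gene's own mean over the samples. The high-regeneration sample of day 4 was lowest for 34 genes, and the low-regeneration sample of day 9 was highest for 33.

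The samples at the ends of the range were the same for nearly every gene. The high-regeneration sample of day 4 was the lowest of the 6 for 34 genes, the exceptions being Ifit3 and Bst2, which were lowest in the high-regeneration sample of day 9. The low-regeneration sample of day 9 was the highest for 33 genes, the exceptions being Rtp4 (low regeneration, day 4), Isg20 (low regeneration, day 6) and Slfn5 (high regeneration, day 6). Both held for 31 genes (86.1%), against 6.41% of all genes tested. The median deviation of the 36 genes from their own means was -0.66, -0.15 and -0.15 under high regeneration at days 4, 6 and 9. Under low regeneration it was 0.065, 0.13 and 0.78. The lowest and the highest sample are thus the 2 that stood apart above.

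Taken day by day, the median difference was -0.69 at day 4, -0.28 at day 6 and -0.92 at day 9. All 36 genes were lower in high regeneration at day 4 and at day 9, and 31 were at day 6, the others being Slfn5, Ifit2, Mx2, Bst2 and Ifitm3. The gap was smallest at day 6 for 30 genes, and largest at day 9 for 25 and at day 4 for 11. The day 6 pair is the only pair that holds neither of the 2 samples that stood apart. Each fit below with a pair left out still holds at least 1 of them. Single-gene differences ran from -2.07 to -0.017 at day 4, from -1.08 to 0.28 at day 6 and from -2.08 to -0.098 at day 9. Whether the day 6 gap differed from the others beyond the spread of samples was not tested. The median difference was -0.48 once the day 9 pair was left out, -0.55 with day 4 left out and -0.82 with day 6 left out. At an unadjusted p under 0.05, 23 of the 36 were lower in high regeneration once day 9 was left out, against 3.37% of all genes in the same fit. With day 4 left out 21 were, against 4.69%, and with day 6 left out 35 were, against 3.89%. With 2 samples a group, the groups did not overlap for 29 genes without day 9 (19.8% of all genes), 29 without day 4 (15.5%) and 32 without day 6 (15.3%). Without the day 6 pair, with 1 residual degree of freedom, 4 of the 36 (11.1%) were lower at an adjusted p under 0.05, against 0.0658% of all genes: Ifit1 at -2.08 (adjusted p = 0.0211), Usp18 at -1.58 (0.0340), Rsad2 at -1.32 (0.0494) and Slfn8 at -1.14 (0.0494). That fit rests only on the pairs of days 4 and 9, which hold the 2 samples that stood apart.

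**Figure D2:**
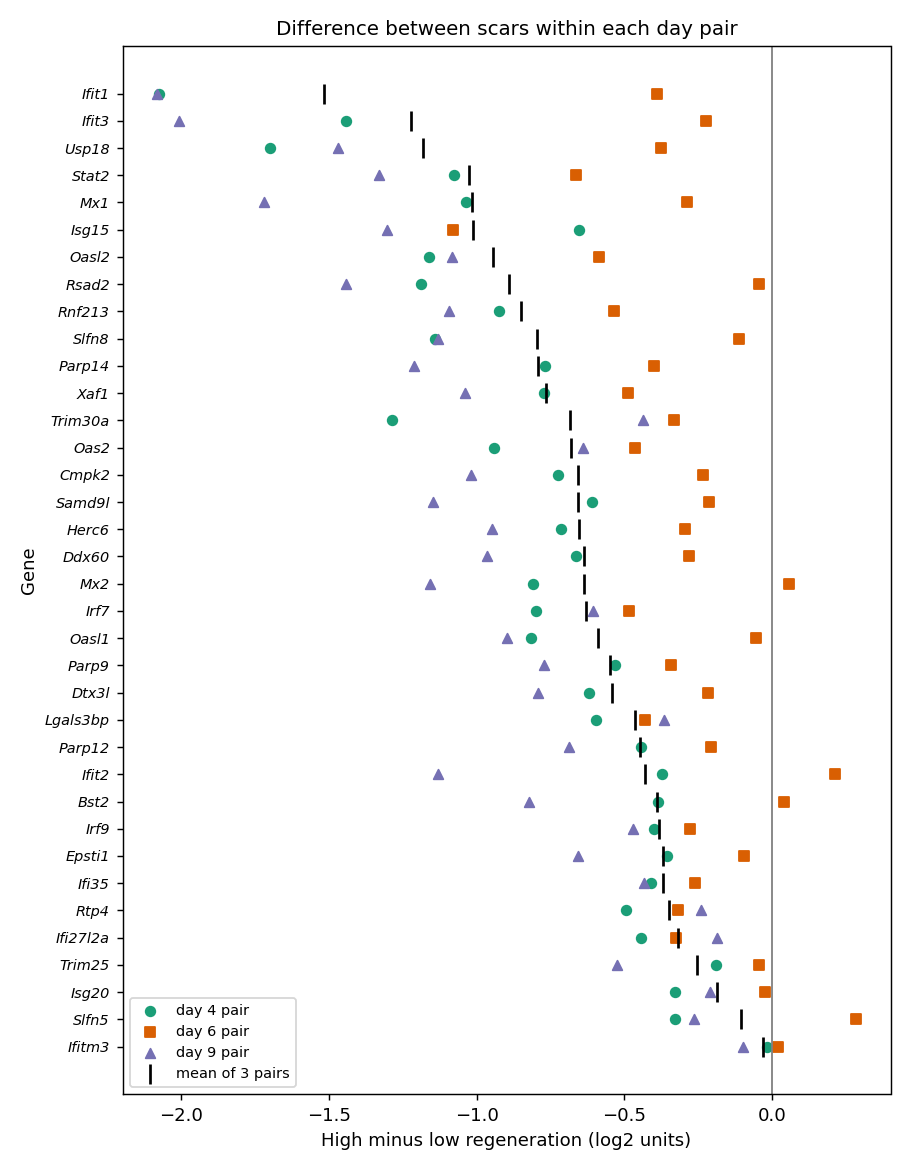
Difference between high and low regeneration (high minus low, log2 units) for each of the 36 genes at day 4, day 6 and day 9, 1 pair of samples a day. The day 6 differences lie nearest to 0 for 30 genes, and all differences of days 4 and 9 are below 0.

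The interferon-stimulated response element has the letters GAAANNGAAA, and the related gamma-activated site has the letters TTCNNNGAA. Both were looked for on both strands in RefSeq promoter windows of mouse (GRCm38.p6), which run from 250 bases before to 50 after a gene's start. Of the 39 listed genes, 31 had a window in the table, and Oas2, Parp9, Rtp4, Mx2, Usp18, Mx1, Parp14 and Ifi27l2a had none. The response element was in a window of 12 of the 31 genes (38.7%), against 1079 of 27025 genes in the whole table (3.99%). The gamma-activated site was in a window of 5 of the 31 (16.1%), against 2582 of all genes (9.55%). In 2 cases the matches overlapped. Such a match describes letters and shows no binding.

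The 250 bases before the start are printed for 5 genes whose level differed by over 0.5 log2 units, Isg15, Ifit1, Ifit3, Stat2 and Rsad2, and for Slfn5, which has the element and differed little. Capitals mark the element, which reads as its reverse complement where it lies on the other strand. The windows are Isg15 at chr4:156200819-156201068 (minus strand), Ifit1 at chr19:34640639-34640888 (plus), Ifit3 at chr19:34583279-34583528 (plus), Stat2 at chr10:128270248-128270497 (plus), Rsad2 at chr12:26456453-26456702 (minus) and Slfn5 at chr11:82951852-82952101 (plus), each read 5′ to 3′ along its gene.
Isg15: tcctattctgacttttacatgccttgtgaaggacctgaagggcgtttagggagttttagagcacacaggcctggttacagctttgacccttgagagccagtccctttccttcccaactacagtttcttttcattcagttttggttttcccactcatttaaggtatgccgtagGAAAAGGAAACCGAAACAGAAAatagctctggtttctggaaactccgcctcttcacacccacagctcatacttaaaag
Ifit1: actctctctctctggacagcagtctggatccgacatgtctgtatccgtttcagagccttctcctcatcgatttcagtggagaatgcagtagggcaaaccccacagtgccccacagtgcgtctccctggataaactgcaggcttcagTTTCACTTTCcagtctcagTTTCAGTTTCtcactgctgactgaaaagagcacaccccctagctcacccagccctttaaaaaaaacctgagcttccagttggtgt
Ifit3: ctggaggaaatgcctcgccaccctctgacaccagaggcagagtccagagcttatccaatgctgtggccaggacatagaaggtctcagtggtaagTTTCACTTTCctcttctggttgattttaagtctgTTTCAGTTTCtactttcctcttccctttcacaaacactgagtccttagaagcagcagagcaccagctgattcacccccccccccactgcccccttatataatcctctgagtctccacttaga
Stat2: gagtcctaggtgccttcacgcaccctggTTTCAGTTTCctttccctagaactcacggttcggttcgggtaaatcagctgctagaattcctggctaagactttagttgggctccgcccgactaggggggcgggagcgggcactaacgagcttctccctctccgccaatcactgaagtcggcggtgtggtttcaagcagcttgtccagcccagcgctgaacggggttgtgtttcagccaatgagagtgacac
Rsad2: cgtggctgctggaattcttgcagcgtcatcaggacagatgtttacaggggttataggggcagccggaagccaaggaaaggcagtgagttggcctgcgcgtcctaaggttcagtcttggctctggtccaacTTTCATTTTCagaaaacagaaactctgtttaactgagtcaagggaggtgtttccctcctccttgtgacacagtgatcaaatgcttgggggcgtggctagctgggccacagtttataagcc
Slfn5: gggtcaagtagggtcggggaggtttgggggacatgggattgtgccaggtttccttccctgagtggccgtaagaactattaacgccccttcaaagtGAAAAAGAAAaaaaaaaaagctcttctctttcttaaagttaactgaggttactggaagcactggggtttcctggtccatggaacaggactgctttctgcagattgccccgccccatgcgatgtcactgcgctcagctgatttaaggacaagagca

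Isg15 holds 3 overlapping elements in 1 run, Ifit1 and Ifit3 hold 2 each on the other strand, and Stat2, Rsad2 and Slfn5 hold 1 each. Among measured genes with a window, the 11 with an element had a median difference of -0.79 (range -1.52 to -0.032), and the 17 without had a median of -0.54 (range -0.94 to -0.19). The ranges overlapped, and Oasl2, at -0.94, had no match in its window. No test was made between these sets.

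**Figure D3:**
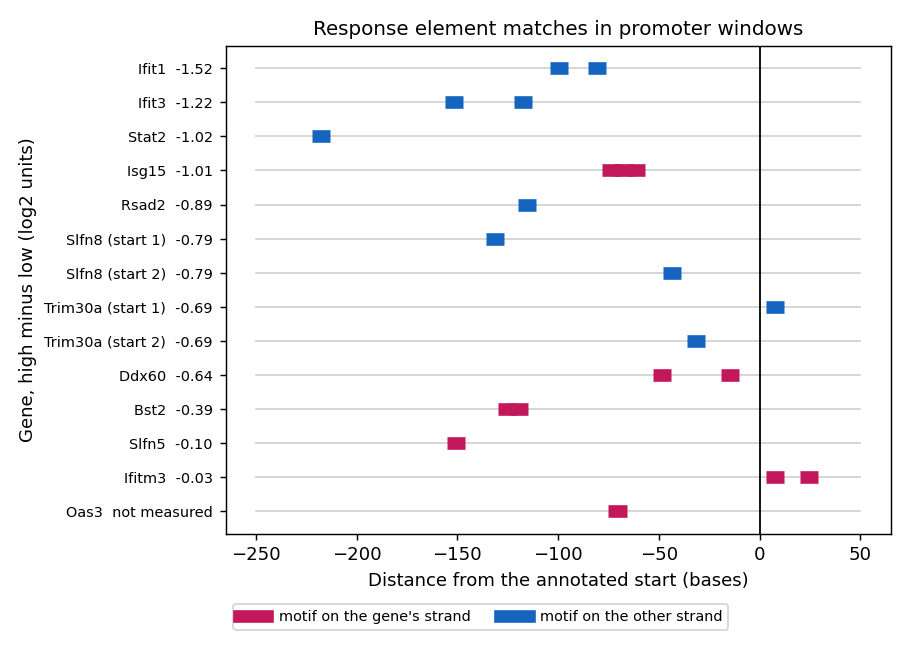
Position of each response element match in the promoter windows of the interferon-stimulated genes that hold one (horizontal axis, bases from the annotated start), with each gene's difference between the groups beside its name. Colour gives the strand, and the matches were in windows of 12 genes.

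The signalling factors were lower in high regeneration at all 3 days. Stat2, the subunit that carries the activation domain of the response-element complex, had log2 levels of 7.70, 8.16 and 8.35 on days 4, 6 and 9 under high regeneration and 8.78, 8.83 and 9.68 under low regeneration. The groups did not overlap, and only the low-regeneration sample of day 9 was above 9. The difference was -1.02 ± 0.34 (SD over 3 pairs; adjusted p = 0.173), a 2.03-fold higher level in low regeneration. Irf9, its DNA-binding partner, had 7.69, 7.96 and 7.88 (high) and 8.09, 8.24 and 8.36 (low), here and below in the same order of days, with no overlap and a smaller difference of -0.38 ± 0.098 (SD over 3 pairs; adjusted p = 0.255). Irf7, which drives the interferon alpha genes, had 7.54, 7.94 and 7.98 (high) and 8.34, 8.42 and 8.59 (low). Its 3 high-regeneration samples were all below its low-regeneration samples, and the difference was -0.63 ± 0.16 (SD over 3 pairs; adjusted p = 0.173). A second, dimmer row of Irf7 differed by 0.097 and was higher in high regeneration at days 4 and 6, so the rows of this gene disagree.

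Genes of ISG15 conjugation were also lower in high regeneration at every day, with a median difference of -0.83 over 4 genes. Isg15, the ubiquitin-like tag itself, had log2 levels of 5.72, 5.86 and 6.31 on days 4, 6 and 9 under high regeneration and 6.38, 6.94 and 7.61 under low regeneration. The groups did not overlap, and its pair differences of -0.65, -1.08 and -1.30 made it the gene with the widest gap at day 6. The difference was -1.01 ± 0.33 (SD over 3 pairs; adjusted p = 0.173). Usp18, the protease that removes ISG15 and binds the receptor to damp signalling, had 7.38, 8.55 and 8.63 (high) and 9.08, 8.93 and 10.10 (low). It differed by -1.18 ± 0.71 (SD over 3 pairs; adjusted p = 0.361), a 2.27-fold higher level in low regeneration with no overlap, and its gap at day 6 was much smaller than at the other days. Herc6, the main ISG15 ligase of mice, had 5.46, 5.95 and 5.93 (high) and 6.18, 6.25 and 6.88 (low), without overlap, and differed by -0.65 ± 0.33 (SD over 3 pairs; adjusted p = 0.318). Trim25, an ISG15 and ubiquitin ligase, differed by only -0.25, and by -0.12 without the day 9 pair, and its groups overlapped.

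The IFIT genes, whose products bind foreign RNA and hinder its translation, had the largest median difference of the role groups, -1.22. Ifit1 had log2 levels of 7.97, 9.10 and 9.07 on days 4, 6 and 9 under high regeneration and 10.05, 9.49 and 11.15 under low regeneration. The groups did not overlap, but the pair differences of -2.07, -0.39 and -2.08 show a much narrower gap at day 6. The difference was -1.52 ± 0.97 (SD over 3 pairs; adjusted p = 0.364), or 2.86-fold. Ifit3 had 10.39, 11.01 and 10.35 (high) and 11.84, 11.23 and 12.36 (low), with no overlap and pair differences of -1.44, -0.22 and -2.01, and its mean difference was -1.22 ± 0.91 (SD over 3 pairs; adjusted p = 0.402). Ifit2 had 7.18, 7.82 and 7.33 (high) and 7.55, 7.61 and 8.46 (low). Its groups overlapped, since the high-regeneration sample was the higher one at day 6, and it differed by -0.43 ± 0.67 (SD over 3 pairs; adjusted p = 0.625), or by -0.079 without the day 9 pair and -0.75 without the day 6 pair.

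In the oligoadenylate synthetase family, whose active members make the signal for RNase L, 3 of 4 genes were measured and all were lower in high regeneration at every day. Oasl2 had log2 levels of 7.55, 8.12 and 8.21 on days 4, 6 and 9 under high regeneration and 8.71, 8.70 and 9.30 under low regeneration, with no overlap and a difference of -0.94 ± 0.31 (SD over 3 pairs; adjusted p = 0.178). Oas2 had 7.36, 7.99 and 7.98 (high) and 8.30, 8.45 and 8.62 (low), also without overlap, and differed by -0.68 ± 0.24 (SD over 3 pairs; adjusted p = 0.224). Oasl1, which in mice represses Irf7 translation, had 6.85, 7.50 and 7.61 (high) and 7.67, 7.56 and 8.51 (low). Its low-regeneration sample of day 6 lay within the high-regeneration range, so its groups overlapped, and the difference was -0.59 ± 0.46 (SD over 3 pairs; adjusted p = 0.433).

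The MX genes encode dynamin-like GTPases that block viral replication. Mx1 had log2 levels of 5.38, 5.96 and 6.03 on days 4, 6 and 9 under high regeneration and 6.42, 6.25 and 7.75 under low regeneration. The groups did not overlap, and the low-regeneration sample of day 9 was over 1 log2 unit above any other. Its difference was -1.01 ± 0.72 (SD over 3 pairs; adjusted p = 0.393), and -0.66 without the day 9 pair. Mx2 had 5.08, 5.56 and 5.62 (high) and 5.89, 5.50 and 6.78 (low), and its groups overlapped because the day 6 pair was nearly equal. Its high-regeneration mean of 5.42 was below the dim cut of 5.60, so it passed the filter only through its low-regeneration samples. It differed by -0.64 ± 0.63 (SD over 3 pairs; adjusted p = 0.491), or by -0.38 without the day 9 pair and -0.98 without the day 6 pair.

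Among enzymes of nucleotides and RNA, Rsad2 (viperin), which makes a chain-terminating nucleotide, had log2 levels of 7.39, 8.45 and 8.21 on days 4, 6 and 9 under high regeneration and 8.58, 8.50 and 9.65 under low regeneration. The groups did not overlap, but at day 6 they were 0.044 apart. The difference was -0.89 ± 0.75 (SD over 3 pairs; adjusted p = 0.444). Its neighbour on chromosome 12 in GRCm38.p6, Cmpk2, a mitochondrial nucleotide kinase, had 6.65, 7.26 and 7.28 (high) and 7.37, 7.49 and 8.29 (low), without overlap, and differed by -0.66 ± 0.40 (SD over 3 pairs; adjusted p = 0.364). The helicase-like gene Ddx60 differed by -0.64 ± 0.34 (SD over 3 pairs; adjusted p = 0.340), also without overlap. The exonuclease gene Isg20 differed by -0.19 ± 0.15 (SD over 3 pairs; adjusted p = 0.531) with overlapping groups, and by -0.12 without the day 4 pair.

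The 2 genes of membrane proteins had the smallest median difference of the role groups, -0.21. Ifitm3, which blocks viral entry at endosomes, had log2 levels of 10.55, 10.65 and 10.57 on days 4, 6 and 9 under high regeneration and 10.57, 10.63 and 10.67 under low regeneration. All 6 samples lay close together and the groups overlapped, with a difference of -0.032 ± 0.060 (SD over 3 pairs; adjusted p = 0.895), which was -0.057 without the day 6 pair and 0.0009 without the day 9 pair. Bst2 (tetherin), which holds budding virions at the cell surface, had 8.04, 8.56 and 8.04 (high) and 8.43, 8.52 and 8.86 (low). Its groups overlapped, its pair differences were -0.39, 0.041 and -0.82, and its mean difference was -0.39 ± 0.43 (SD over 3 pairs; adjusted p = 0.533). That was -0.17 without the day 9 pair and -0.60 without the day 6 pair.

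The genes of ADP-ribosylation formed an even group, with a median difference of -0.55 over 4 genes that were each lower at all 3 days. Parp14 had log2 levels of 7.68, 8.13 and 8.14 on days 4, 6 and 9 under high regeneration and 8.45, 8.53 and 9.35 under low regeneration, without overlap, and differed by -0.79 ± 0.41 (SD over 3 pairs; adjusted p = 0.313). Parp9 and its ubiquitin ligase partner Dtx3l, which lie side by side on chromosome 16 in GRCm38.p6, had similar differences. Parp9 had 7.45, 7.75 and 7.80 (high) and 7.98, 8.09 and 8.57 (low), a difference of -0.55 ± 0.21 (SD over 3 pairs; adjusted p = 0.255). Dtx3l had 7.41, 7.997 and 7.69 (high) and 8.03, 8.21 and 8.48 (low), a difference of -0.54 ± 0.30 (SD over 3 pairs; adjusted p = 0.361). Neither overlapped between the groups. Parp12 differed by -0.45, and its groups overlapped.

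The Schlafen genes, which restrict growth and translation, had unlike values. Slfn8 had log2 levels of 7.75, 8.79 and 8.77 on days 4, 6 and 9 under high regeneration and 8.90, 8.90 and 9.90 under low regeneration, without overlap, and differed by -0.79 ± 0.59 (SD over 3 pairs; adjusted p = 0.411). Slfn5, parted from it by 1 coding gene on chromosome 11 in GRCm38.p6, had 8.62, 9.31 and 8.99 (high) and 8.95, 9.02 and 9.25 (low). It overlapped between the groups and was highest in the high-regeneration sample of day 6, with a difference of -0.10 ± 0.34 (SD over 3 pairs; adjusted p = 0.833). Without the day 4, 6 or 9 pair that was 0.0086, -0.30 and -0.023. Samd9l, a translation repressor, had 6.56, 6.97 and 7.13 (high) and 7.17, 7.18 and 8.28 (low), without overlap, and differed by -0.66 ± 0.47 (SD over 3 pairs; adjusted p = 0.401), or by -0.41 without the day 9 pair.

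Trim30a, a mouse TRIM protein that restrains inflammatory signalling, had log2 levels of 7.81, 8.66 and 8.90 on days 4, 6 and 9 under high regeneration and 9.09, 8.99 and 9.34 under low regeneration. The groups did not overlap, its gap was widest at day 4, and the difference was -0.69 ± 0.52 (SD over 3 pairs; adjusted p = 0.417), or -0.38 without the day 4 pair. The remaining 7 genes were each lower in high regeneration at all 3 days, with differences from -0.85 to -0.32, and 6 of them did not overlap. Rnf213, a giant ubiquitin ligase, differed by -0.85 ± 0.29 (SD over 3 pairs; adjusted p = 0.193), and its second row by -0.67. Xaf1, a pro-apoptotic factor, differed by -0.77 ± 0.28 (SD over 3 pairs; adjusted p = 0.212), and its second row by -0.15 with the opposite sign at day 9. Lgals3bp, a secreted glycoprotein that binds galectins, differed by -0.47 ± 0.12 (SD over 3 pairs; adjusted p = 0.224), Epsti1 by -0.37, Ifi35 by -0.37 and Rtp4 by -0.35, all without overlap. Without the day 9 pair Epsti1 differed by -0.23. Ifi27l2a had 6.77, 6.99 and 7.29 (high) and 7.21, 7.31 and 7.48 (low), with overlapping groups and a difference of -0.32 ± 0.13 (SD over 3 pairs; adjusted p = 0.361).

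**Figure D4:**
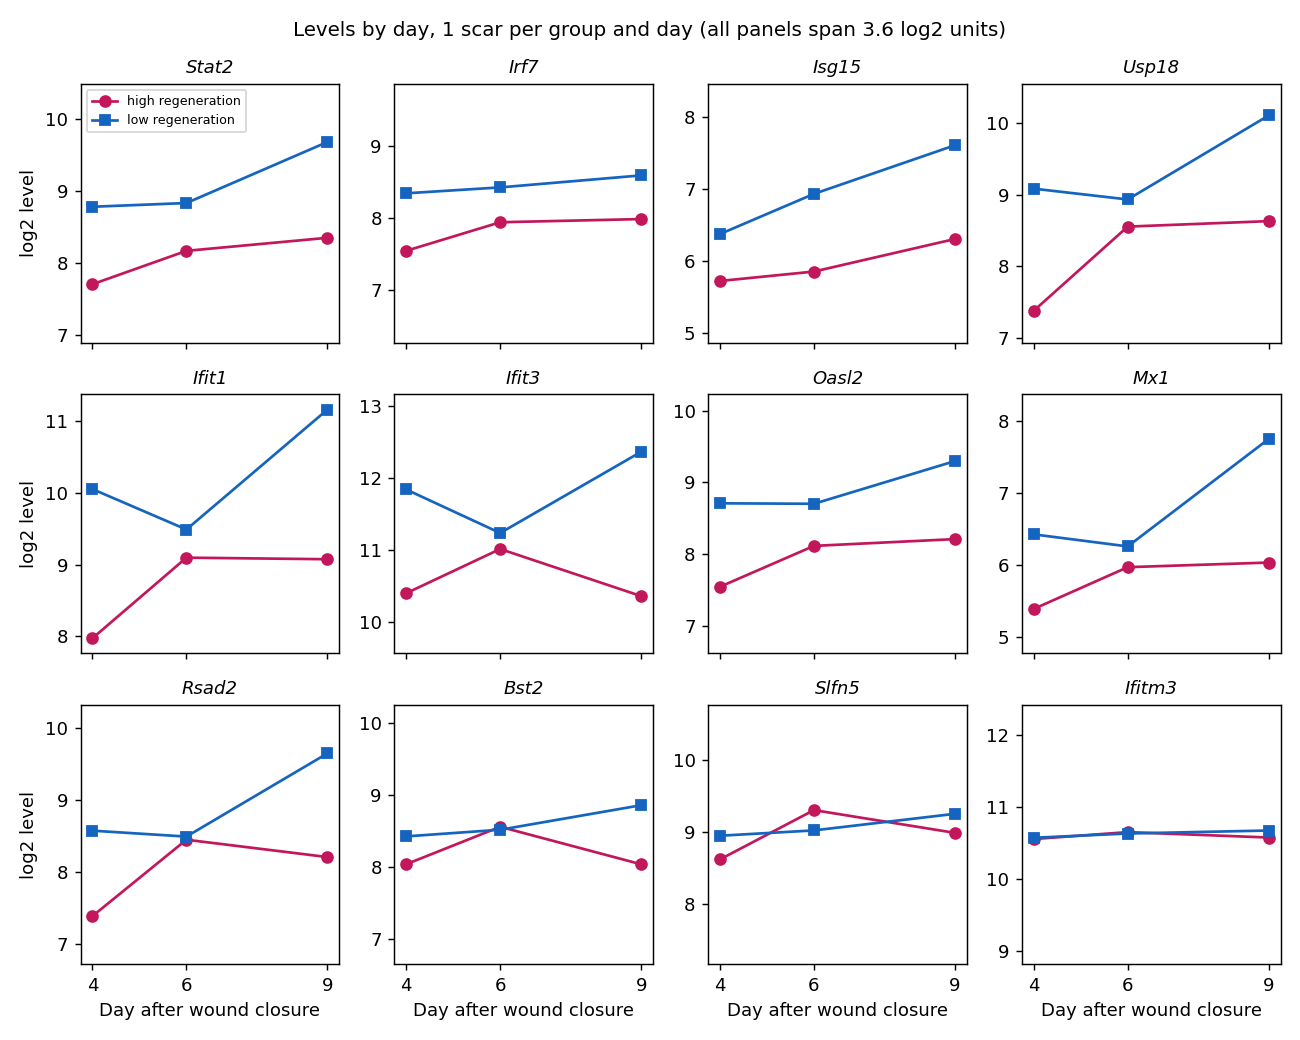
Log2 level of selected interferon-stimulated genes in each sample against the day after wound closure, with high and low regeneration in different colours and 1 sample per point. In most panels the low-regeneration sample of day 9 is highest and the high-regeneration sample of day 4 lowest.

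Most of the genes stood higher late than early, whatever the group. The slope per day, with the group held, was positive for 35 of the 36 genes, against 6867 of all 15191 genes tested. Its median was 0.11 log2 units per day, against -0.0044 over all genes tested, and it ranged from -0.0050 (Isg20) to 0.22 (Usp18). No gene passed: 0 of the 36 and 0 of all genes (0%) reached an adjusted p under 0.05. At an unadjusted p under 0.05, 23 of the 36 (63.9%) were higher at later days, against 6.94% of all genes. The slope fit counted the 2 samples of a day as independent, so its p-values leave out the pairing by day. Isg15 had the lowest p, with a slope of 0.18 ± 0.031 log2 units per day (SE, adjusted p = 0.165). Next to it were Xaf1 at 0.14 ± 0.027 (adjusted p = 0.173) and Rnf213 at 0.15 ± 0.030 (0.180). With low regeneration at day 9 left out, 10 of the 36 had a positive slope at an unadjusted p under 0.05, against 4.69% of all genes in that fit, and the median slope was 0.083. Without the high-regeneration sample of day 4, 17 did, against 5.95%, and the median slope was 0.099. The sign of the slope turned for Isg20, Rtp4, Ifit3 or Bst2 when single samples were left out, Ifit3 being at -0.0624 and Bst2 at -0.00567 when day 9 of low regeneration was left out.

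The steps between days were of different size in the 2 groups. From day 4 to day 6 the median step of the 36 genes was 0.47 in high and 0.061 in low regeneration. From day 6 to day 9 it was 0.012 in high and 0.61 in low. Over the whole span it was 0.48 in high and 0.64 in low regeneration, and 32 of the 36 ended above their day 4 level in both groups, against 28.8% of all genes. The larger step of each group starts or ends at 1 of the 2 samples that stood apart, and no slope was fitted without both. In low regeneration the rise to day 9 cannot be told apart from the difference in sex. For 32 genes the high-regeneration sample of day 9 was still below the low-regeneration sample of day 4. The difference in slope (high minus low) had a median of -0.051 per day, against -0.00033 over all genes tested, and was negative for 27 genes. The counts of 32 below day 4 of low regeneration and of these 27 have no share over all genes beside them. No gene passed that test (lowest adjusted p 0.988), and at an unadjusted p under 0.05 only Isg15 did, at -0.13, 1 of 36 against 3.96% of all genes.

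**Figure D5:**
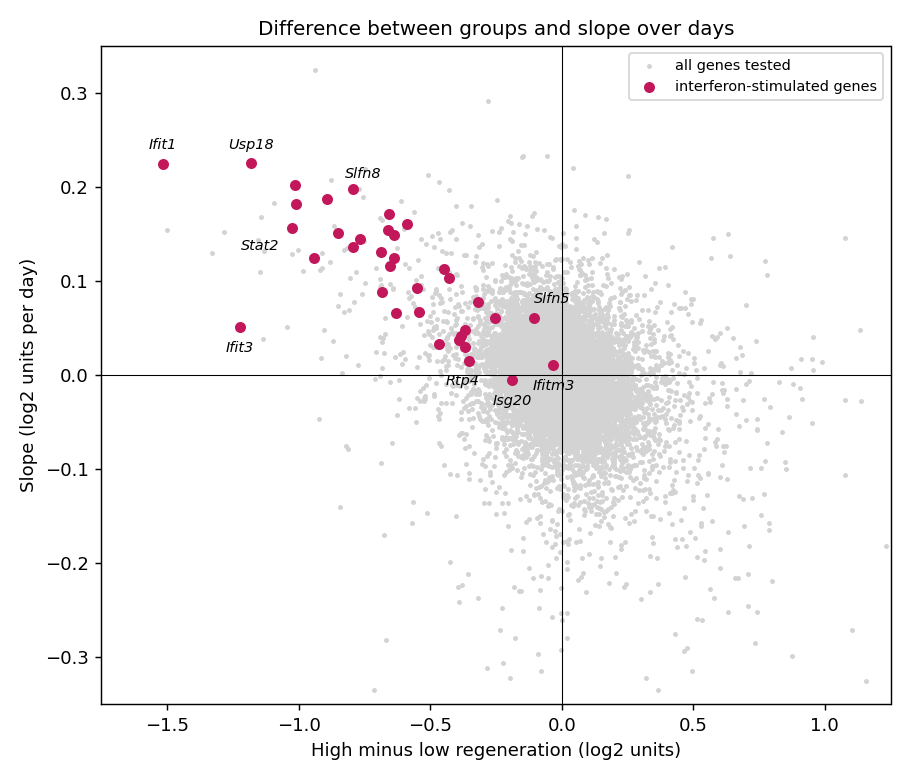
Mean difference between the groups (horizontal axis, high minus low regeneration, log2 units) against the slope per day (vertical axis, log2 units) for the 36 interferon-stimulated genes and all genes tested, of which 96 lie outside the plotted range. Every one of the 36 lies left of 0 and 35 lie above 0.

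Genes of the pathway upstream of the 36 had smaller median differences. Of 14 signal-transduction genes tested, 0 passed and 8 were lower in high regeneration at all 3 days, against 18.3% of all genes. Their median difference was -0.13 (-0.12 without the day 9 pair and -0.083 without the day 4 pair). For these other lists, leaving out pairs was chosen after the data were seen. The receptor chains Ifnar1 and Ifnar2 differed by -0.080 and -0.098, and the transcription factors Irf2, Irf8 and Irf1 by -0.29, -0.37 and -0.41, and the kinase gene Jak2 by -0.17. Of the 9 interferon ligand genes measured, only 4 passed the dim filter. None of these 4 passed the test, with Ifnb1 at -0.19 (adjusted p = 0.575), Ifng at -0.19, Ifnz at 0.058 and Ifna1 at 0.26. Their median difference was -0.064, which turned to 0.041 without the day 9 pair and was -0.10 without the day 4 pair.

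Nucleic acid sensors and adaptors, which lie upstream of interferon, had a median difference of -0.28 over 17 genes (-0.25 without the day 9 pair and -0.16 without the day 4 pair), and 0 passed. Of the 17, 11 were lower at all 3 days, against 18.3% of all genes. The 4 of lowest p were Zbp1 (-0.88), Dhx58 (-0.78), Ddx58 (-0.63, the RNA sensor RIG-I) and the RNA editor Adar (-0.50), all of which interferon itself is known to induce, while Tlr3 differed by -0.28. Of 9 genes listed as feedback inhibitors, 0 passed and 6 were lower at all 3 days, against 18.3% of all genes. Of these 6, 3 were without overlap, against 6.18% of all genes. The median over the 9 was -0.092 (-0.13 without the day 9 pair and -0.062 without the day 4 pair). Ptpn6, a phosphatase, Pias1, an inhibitor of STAT proteins, and Ube2l6, the ISG15-conjugating enzyme, differed by -0.30, -0.20 and -0.34. Ube2l6 is counted in this list, and among the 6, although its role is to conjugate ISG15. Socs3, an inhibitor of cytokine receptor signalling, ran the other way and was higher in high regeneration in all 3 pairs, at 0.59 (adjusted p = 0.163). Its groups did not overlap.

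Other interferon-stimulated genes, a longer list that does not hold the 36, followed the same direction with smaller differences. Of 41 tested, 0 passed and 29 were lower at all 3 days, against 18.3% of all genes. The median difference was -0.24 (-0.19 without the day 9 pair and -0.23 without the day 4 pair). Slfn1 (-0.91), Slfn4 (-0.83) and Ly6e (-0.52 ± 0.028, SD of 3 pairs) were lower in each pair. Genes that respond mainly to interferon gamma had a median difference of -0.82 over 15 tested (-0.61 without the day 9 pair and -1.002 without the day 4 pair). Of these 15, 11 were lower at all 3 days, against 18.3% of all genes, and 0 passed the test. Tgtp1, Gbp2, Gbp7 and Irgm1, GTPases that act against intracellular microbes, differed by -1.50, -1.16, -0.98 and -0.92. Irf1 and Irf8 are also in this list, and Dhx58 is in the preceding one. Whether these lists differed from the 36 was not tested.

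Markers of other cell types were set beside these results. Summed T cell and natural killer cell markers (the log2 of their summed linear levels, with 12 of 14 listed genes measured) were at 10.12 to 10.64 in high and 10.83 to 11.03 in low regeneration, without overlap. Of the 11 tested, 8 were lower at all 3 days, against 18.3% of all genes. Their median difference was -0.47, which was -0.25 without the day 9 pair and -0.48 without the day 4 pair. Gzmb (-1.13), Cd3g (-0.82), Il2rb (-0.65) and Cd3e (-0.47) were lower, whereas Cd3d, which did not pass the dim filter, was higher in high regeneration at every day. The part of these cells in the interferon result was not tested. Summed macrophage markers were at 12.42 to 12.72 in high and 12.51 to 12.59 in low regeneration, so they overlapped. Of these, Fcgr1, which interferon is known to induce, differed by -0.49, Adgre1 by -0.35, Cx3cr1 by 0.21 and Cd14 by 0.53. Summed markers of plasmacytoid dendritic cells, known as strong makers of type I interferon, were at 11.52 to 12.08 and 11.51 to 12.06, but that sum is mostly Ly6d, at 11.26 to 11.93. Siglech (-0.34) and Ccr9 (-0.25), which mark these cells, were lower in high regeneration in all 3 pairs, Ccr9 without overlap. Cox6a2 (0.13) was higher in all 3 pairs, also without overlap, and Pacsin1 differed by -0.13. Of the 6 genes of that list 2 were lower and 2 higher in all 3 pairs, with 0 past the test, where 18.3% of all genes were lower. The part of these cells in the result was not tested. Summed dendritic cell markers were at 10.16 to 10.89 in high and 10.35 to 11.11 in low regeneration, and those of endothelial cells at 10.67 to 10.83 and 10.64 to 10.96, both with overlap. The median difference of the dendritic cell markers was -0.24, which turned to 0.032 without the day 4 pair and was -0.38 without the day 9 pair. The 4 dendritic and 4 endothelial genes of lowest p differed by -0.33 (Clec9a) to -0.19 (Flt3), with Xcr1 at -0.32 and Cd209a at -0.29, and by -0.13 (Kdr) to 0.16 (Tek), with Cdh5 at -0.12 and Pecam1 at -0.066. Neutrophil markers were at 8.81 to 9.64 against 8.99 to 9.41, with S100a8 at 0.091, Csf3r at -0.14 and Cxcr2 at -0.11. B cell markers were at 7.80 to 8.20 against 7.83 to 8.19, with Cd79a at -0.029 and Cd79b at -0.019. Keratinocyte and fibroblast markers, which mark the labelled tissue, were near equal, at 15.07 to 15.15 against 15.05 to 15.17 and at 14.19 to 14.32 against 14.29 to 14.34. Krt5, Krt10, Krtdap and Dsp differed by 0.047, -0.080, 0.040 and -0.069, and Lum, Col1a2, Dcn and Pdgfra by -0.30, -0.098, -0.032 and -0.025. No marker list can be read as absent on this scale, since array levels have no true 0.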

How the data were processed

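Levels of 6 skin scar samples were read from a table of values that the authors deposited for each array row, named here as log2 because of their range; the scale is not stated in the sources used here. The authors used PLIER in Affymetrix Expression Console, per the submitters' processing notes, which give neither a version nor a genome build. PLIER summarises the probes of a row, so a level cannot be compared between genes. The marker sums are compared only between samples, and they follow the rows of highest level most.

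Of 53145 rows, 25466 carried 1 gene symbol in the platform annotation, 2299 several and 25380 none. Rows with 1 symbol gave 20255 genes, the row of highest mean being kept for the 3090 genes with several. The 25% of genes with the lowest mean (under 5.60) were left out, leaving 15191. Linear models were fitted with limma 3.58.1 under R 4.3.3 (functions lmFit and eBayes), with two-sided p-values adjusted by Benjamini-Hochberg over all 15191 genes and a threshold of 0.05. They fitted regeneration group with day as a block (2 residual degrees of freedom), the slope per day with group held (3) and the interaction of group with day (2). In the group fit the 2 samples of a day were taken as a pair, as the design text states. The slope and interaction fits held no term for the pair, so there the 2 samples of a day counted as independent. The correlation of the deviations of paired samples from the group means was 0.50, 0.11 and 0.56 at days 4, 6 and 9. Between high and low samples of different days it was -0.49 to 0.14, a range that holds the day 6 value. With 1 pair a day, a shared pair and a shared day cannot be told apart. The script was tested on simulated data.

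The listed genes and the other gene lists were chosen with earlier results of these data known. All measured listed genes are named, with values in every sample for those of a list that follows the roles; from each other list up to 4 genes of lowest p are named, with Ifnar1, Ifnar2, Ifnb1, Tlr3 and Irf1. Promoter windows are from RefSeq, GRCm38.p6. Alternatives were quantile normalization, no filter on dim genes, the median over a gene's rows, no day term, an intensity trend in the variance prior, and leaving out samples; leaving out pairs for the other gene lists was added after the data were seen. Python 3.11.15, pandas 2.3.3 and matplotlib 3.10.9 were used for counts and figures. Arrays give no count of molecules, so precision is limited by the number of arrays.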

Additional observations from a re-analysis of the deposited data

Results flagged for a closer look

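For 5 of the 36 genes the day 6 pair ran opposite to the pairs of days 4 and 9: at day 6 the level was higher in the high-regeneration sample by 0.28 log2 units for Slfn5, 0.21 for Ifit2, 0.057 for Mx2, 0.041 for Bst2 and 0.019 for Ifitm3, while every other pair of these genes was lower there. With 1 pair a day, the difference between days was not tested.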

How the results depend on the processing

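The median difference between the groups kept its sign under each alternative run, from -0.82 without the day 6 pair to -0.48 without the day 9 pair. Leaving out a day's pair moved the number of genes past an adjusted p under 0.05 between 0 and 4. Without the day term, which drops the pairing by day, 0 of the 36 passed and 22 had an unadjusted p under 0.05. Leaving out 1 sample moved the count of slopes at an unadjusted p under 0.05 between 10 and 28, the median slope between 0.083 and 0.15, and the count of slope differences at that threshold between 1 and 3. Signs turned for the group difference of Slfn5 (-0.30 to 0.0086 with a pair left out) and Ifitm3 (-0.057 to 0.0009). They turned for the slopes of Isg20 (-0.041 to 0.017), Rtp4 (-0.00625 to 0.035), Ifit3 (-0.0624 to 0.15) and Bst2 (-0.00567 to 0.11) with a sample left out, and for the slope difference of Slfn5 (-0.0013 to 0.012). They also turned for the slope difference of Oasl2 under quantile normalization (-0.0028) and of Irf7 (-0.079) and Xaf1 (0.052) with the median over rows. The cause was not tested, beyond the use of fewer samples or other rows. The other single-gene results kept their direction, 282 of 288 for the group difference with 4 that newly passed, 354 of 360 for the slope and 212 of 216 for its difference. Leaving out the samples of days 4 and 9 in turn was not run for the slope difference. The main limit is 3 pairs, 1 per day.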
